A study of Danio rerio with 29 samples.

Results

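Genes that mark radial glia and astroglia were followed through every library of a zebrafish ccser1 mutant study. They were chosen by name, from 10 names: gfap, s100b, fabp7a, fabp7b, slc1a2b, slc1a3b, glula, aqp4, her4.1 and id1. A row of the count tables was taken where its symbol was one of these, ignoring case and allowing a final a or b to be absent. That gave 13 of the 32520 genes in each table. The supplied name table lists many zebrafish genes under the capital symbol of the human gene and drops the letter that separates duplicate copies. FABP7, SLC1A2, SLC1A3 and GLUL therefore have 2 rows each, numbered here 1 and 2 in the order of their gene IDs, and which row is the a or the b copy was not settled here. The names hold only 1 copy of SLC1A2, SLC1A3 and GLUL, so at least 1 row of each is a copy outside the 10 names. Counts and medians of these genes below include such rows. The rows are FABP7-1 (ENSDARG00000007697), FABP7-2 (ENSDARG00000034650), SLC1A2-1 (ENSDARG00000052138), SLC1A2-2 (ENSDARG00000102453), SLC1A3-1 (ENSDARG00000043148), SLC1A3-2 (ENSDARG00000104431), GLUL-1 (ENSDARG00000099776), GLUL-2 (ENSDARG00000100003), GFAP (ENSDARG00000025301), S100B (ENSDARG00000057598), AQP4 (ENSDARG00000010565), her4.1 (ENSDARG00000056732) and ID1 (ENSDARG00000040764).

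Radial glia span the wall of the ventricle and, in fish, stay abundant in the adult brain. There they serve as neural stem cells and also do much of the work that astrocytes do in mammals, such as taking up glutamate and turning it into glutamine. Notch signalling through the her4 genes and BMP signalling through id1 are known to hold them in a resting state.

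The study sequenced RNA with poly(A) tails from adult zebrafish, in 11 libraries of whole brains and 18 of bodies without the brain. The fish carried no mutation (WT) or were homozygous for a CRISPR allele of ccser1, either CCSER1_P471 (the M line) or CCSER1_S48Y* (the S line). WT fish were siblings from crosses between heterozygous carriers, and of which line is not labelled. There were 3 WT, 4 M and 4 S brains, and 6 bodies of each genotype. Each line is a single allele, and age beyond adulthood, sex and pooling of fish are not labelled. Nothing in the labels says that each library was a separate fish, so the p-values measure the spread between libraries. The comparisons set each line against WT and the lines against each other, within each tissue.

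Brain libraries held 7445865 to 9521735 counts each, and body libraries held 9450422 to 11674882. Levels are CPM (counts scaled to the library total) after TMM scaling, which are not divided by gene length and so do not rank one gene against another. The CPM printed were scaled within each tissue and are not to be set across tissues. The transcript of ccser1 itself did not separate the brains, at 7.38 to 10.8 CPM in WT, 7.12 to 10.3 in M and 8.49 to 13.7 in S. In bodies its log2 change was -0.70 in the M line (SE 0.243, adjusted p = 0.0341) and also -0.70 in the S line (SE 0.242, adjusted p = 0.0299). A brain library of the M line (M brain 4) and one of the S line (S brain 3) stood apart. Their mean correlation with the other libraries of their group was 0.969 and 0.963, against 0.976 to 0.978 for the rest of the mutant brains. The summed level of 22 epidermis genes was 1031 CPM in M brain 4 and 4582 in S brain 3, against 822 in WT brain 1 and 182 to 304 in the other brains. S brain 3 also held 1033 CPM of skeletal muscle genes, against 46.2 to 102 elsewhere. Clock genes summed to 8581 CPM in M brain 4, where the remaining M brains held 5446 to 6371. WT brains held 7872 to 8173 and S brains 8606 to 9418, so by this sum M brains 1 to 3 lay apart from all others. The part of this difference in the results on glial genes was not tested. Results that rest on M brain 4 or S brain 3 are given below with and without them. In whole tissue, fewer cells of a type and less RNA per cell cannot be told apart.

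In WT fish most of these genes were brain genes. Of 12 that could be tested, 9 were higher in brain than in body and 1 was lower at an adjusted p below 0.05, where 79.7% of all 22442 genes tested were called, 37.9% higher and 41.7% lower. The median log2 difference was 2.55 for the 12 and -0.12 for all genes. S100B, a calcium-binding protein of astroglia, had the largest difference, 4.55 (SE 0.173, adjusted p = 1.2e-17). The glutamate transporters SLC1A2-2 and SLC1A3-1 followed with differences of 22.8-fold and 21.1-fold, and her4.1 with 20.3-fold. GFAP, the intermediate filament of radial glia, differed less, by 1.23 (SE 0.181), and was found in every body library. GLUL-2, one of the glutamine synthetase rows, differed by 0.60 (SE 0.191, adjusted p = 0.00554). SLC1A3-2 was called lower in brain, by -0.30 (SE 0.140, adjusted p = 0.0487), but its direction depends on the scaling, and the call was lost in 22 of 29 fits that left out 1 library (adjusted p up to 0.289). ID1 differed by 0.22 (SE 0.143, adjusted p = 0.165). The scaling matters for this contrast, which uses TMM factors over both tissues. RLE factors moved the median of all genes from -0.12 to -0.27, and TMM factors computed within each tissue, tried after these values were seen, moved it to 0.38. Under RLE GLUL-2 differed by 0.43 and was not called (adjusted p = 0.0533). Under the factors within each tissue 10677 genes were higher in brain and 7568 lower, SLC1A3-2 turned to 0.20 (adjusted p = 0.169) and ID1 was called higher at 0.72 (adjusted p = 2.88e-05). The 9 genes called higher in brain were called higher under those factors too.

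AQP4, the water channel of astroglial endfeet in mammals, was close to absent. It had 7 counts over the 11 brains and 82 over the 18 bodies, failed the filter on low counts in both tissues and was not tested. SLC1A2-1, the scarcer of the SLC1A2 rows, passed the filter in brains and failed it in bodies, where its counts summed to 5 in WT, 7 in M and 3 in S.

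**Figure D1:**
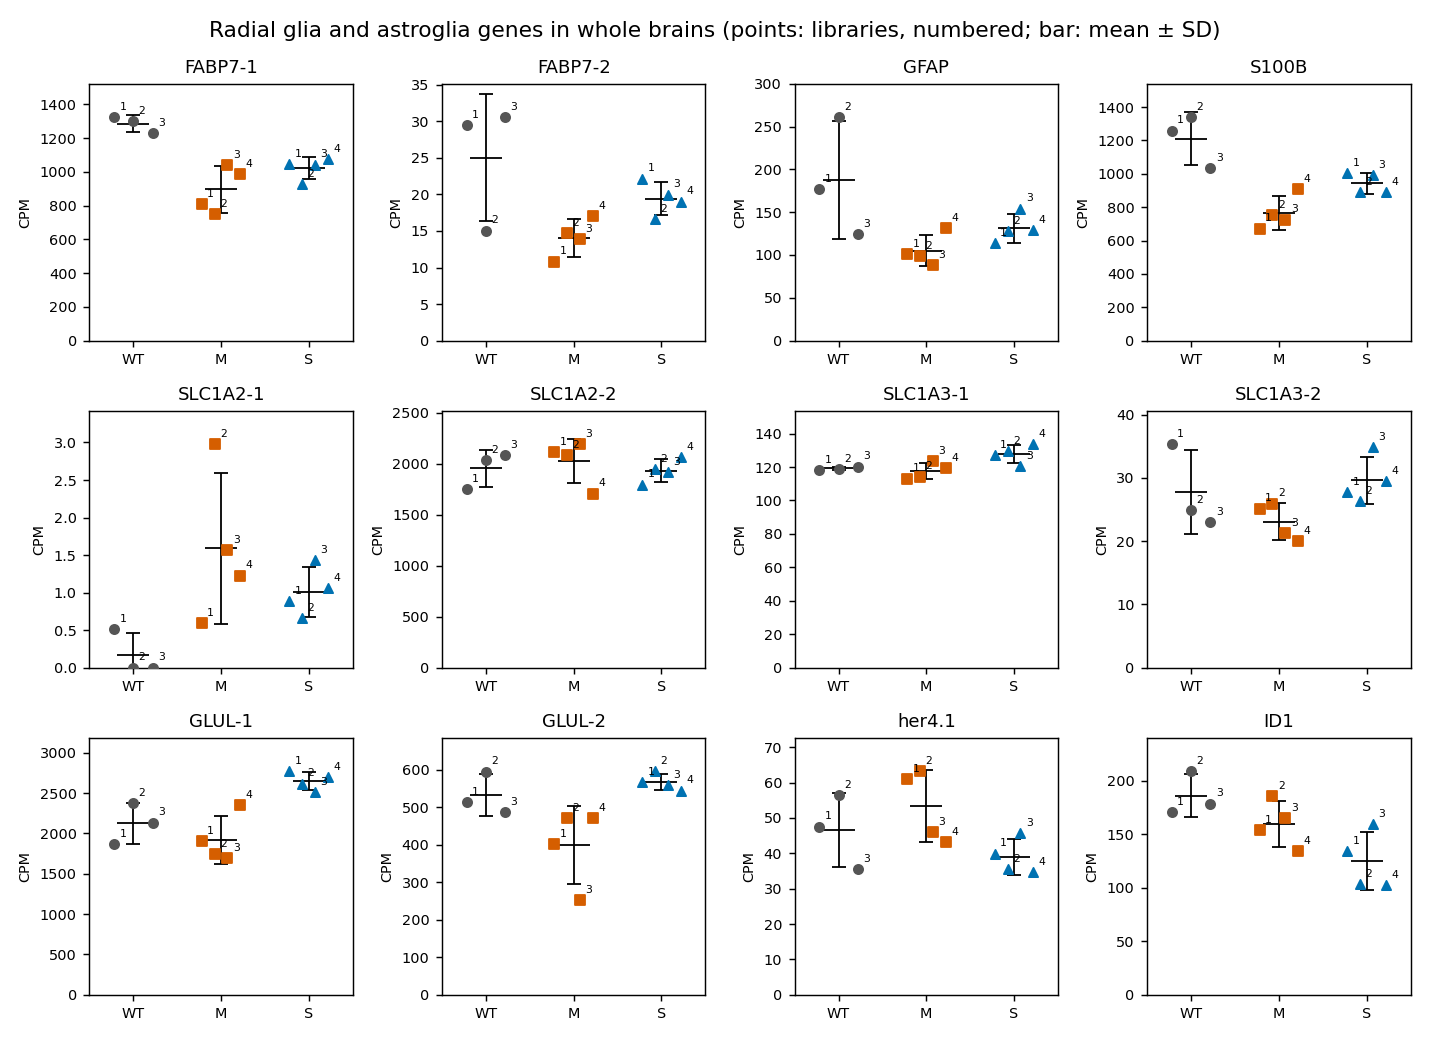
CPM after TMM scaling (y axis, linear, from 0) of the 12 genes tested in brains, for 3 WT, 4 M and 4 S libraries. Points are libraries with their replicate number beside them, and bars are mean ± SD. The 2 libraries that stood apart are number 4 of M and number 3 of S. S100B and FABP7-1 lie lower in every M brain than in any WT brain, and SLC1A2-2 and SLC1A3-1 show no such gap.

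Brains of the M line held less FABP7 and S100B transcript, while the abundant glutamate transporters lay near the WT level. Of 12 genes tested, 3 were called lower and 1 higher. Of 18733 genes tested, 10.1% were called, 4.93% higher and 5.19% lower. The one called higher, SLC1A2-1, passed the filter on low counts only through mutant brains and so could only be higher. The median log2 change of the other 11 was -0.26, and that of all genes 0.01.

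S100B was the clearest change. Its level was 1259, 1340 and 1033 CPM in WT brains and 672, 753, 726 and 908 CPM in M brains. Every M brain lay below every WT brain, and M brain 4 was the highest of its group. S100B fell by 0.66 on the log2 scale (SE 0.104, adjusted p = 0.00218), from 1211 ± 159 CPM (SD, n = 3) to 765 ± 101 (n = 4). The call held in each of 11 fits that left out 1 library.

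FABP7 encodes the brain fatty acid binding protein, which radial glia hold in quantity. FABP7-1 stood at 1325, 1301 and 1228 CPM in WT and at 810, 750, 1040 and 988 CPM in M. The groups did not overlap. FABP7-1 fell by 0.52 (SE 0.098, adjusted p = 0.00602) and kept its call in each of the 11 such fits. FABP7-2 was far scarcer, at 29.5, 15.06 and 30.6 CPM in WT and 10.8, 14.7, 13.8 and 17.1 CPM in M. WT brain 2 lay among the M brains, so the groups overlapped. FABP7-2 fell by 0.83 (SE 0.219, adjusted p = 0.0298), but the call was lost when WT brain 1 or 3 or M brain 1, 2 or 3 was left out (adjusted p up to 0.126), and when the S brains were not in the fit (adjusted p = 0.0772).

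GFAP read 177, 261 and 124 CPM in WT and 101, 98.9, 88.5 and 131 CPM in M. WT brain 2 was high, and M brain 4 lay above WT brain 3, so the groups overlapped. The log2 change of GFAP was -0.83 (SE 0.233) and missed the threshold (adjusted p = 0.0534). Over the 11 fits without 1 library it ran from -1.06 to -0.52, with an adjusted p from 0.0113 to 0.13. The smallest change came without WT brain 2 (adjusted p = 0.116), and it was called without WT brain 3 (-1.06, adjusted p = 0.0113) or without M brain 4 (-0.96, adjusted p = 0.0373). With only WT and M brains in the fit the adjusted p was 0.126. DESeq2 called it on all libraries (adjusted p = 0.00078), as did edgeR without robust fitting (adjusted p = 0.0253).

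The abundant rows of the glutamate transporters lay close to WT in M brains. SLC1A2-2, the abundant row of the transporter that clears most glutamate from the mammalian forebrain, read 1748, 2039 and 2083 CPM in WT and 2113, 2082, 2190 and 1706 CPM in M (log2 change 0.05, 95% interval -0.12 to 0.21). SLC1A3-1 was as even as any, at 118 to 120 CPM in WT and 113 to 124 CPM in M (log2 change -0.02, 95% interval -0.14 to 0.10). These intervals leave out a change of 2-fold in either direction. SLC1A3-2 stood at 23.0 to 35.3 CPM in WT and 19.98 to 25.9 CPM in M (-0.26, SE 0.156, adjusted p = 0.307).

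SLC1A2-1 is given as a description only. No WT brain reached the 1.19 CPM that the filter on low counts asks of 3 libraries, where 3 M brains and 1 S brain did. It had 4, 0 and 0 counts in the WT brains and 5, 28, 12 and 11 in the M brains, or 0.514, 0 and 0 CPM against 0.593, 2.98, 1.57 and 1.23 CPM. The M brains all lay above the WT brains, by a narrow margin for WT brain 1 and M brain 1. The fitted log2 change was 3.15 (SE 0.903, adjusted p = 0.039) on these few counts and ran from 2.57 to 6.79 with 1 library left out. The filter fixed the direction in advance, so neither this p-value nor the gap between the groups is support for a rise. The call was lost when any of WT brains 2 and 3, M brains 2 and 3 and S brains 1 and 4 was left out (adjusted p up to 0.134), and with only WT and M brains in the fit (adjusted p = 0.0746).

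Glutamine synthetase did not pass the test. GLUL-1 read 1869, 2371 and 2134 CPM in WT and 1903, 1747, 1691 and 2348 CPM in M (log2 change -0.15, SE 0.107, adjusted p = 0.428). M brain 4 was by far the highest M brain for this gene, and without it GLUL-1 was called lower (-0.26, adjusted p = 0.0396). GLUL-2 read 514, 595 and 488 CPM in WT and 402, 471, 253 and 471 CPM in M, with every M brain lower (-0.41, SE 0.184, adjusted p = 0.189).

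The Notch target her4.1, a repressor of neurogenic genes, stood at 47.5, 56.5 and 35.6 CPM in WT and 61.0, 63.1, 46.1 and 43.2 CPM in M. The groups overlapped, and the log2 change was 0.20 (SE 0.173, adjusted p = 0.51). The tables also list her4.2, her4.3, her4.4 and her4.5, near-identical neighbouring copies among which reads can be split, so each value is uncertain; none of the 5 was called in brains of either line (lowest adjusted p 0.151, for her4.3 in S). ID1, which blocks the partners of neurogenic factors, read 171, 209 and 179 CPM in WT and 154, 186, 165 and 134 CPM in M (-0.22, SE 0.160, adjusted p = 0.421).

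In brains of the S line, 2 of the 12 genes were called, both lower, where 10.3% of all genes were called, 4.73% lower and 5.59% higher. The median log2 change was -0.26 for the 11 without SLC1A2-1 and 0.00 for all genes. These brains were compared with the same WT libraries as the M brains, so the results of the lines are not independent of each other.

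ID1 read 171, 209 and 179 CPM in WT brains and 135, 104, 160 and 103 CPM in S brains. All S brains lay below all WT brains, with S brain 3 the nearest. ID1 fell by 0.57 (SE 0.160, adjusted p = 0.0444), where M brains gave -0.22. S100B read 1005, 889, 992 and 892 CPM in S brains, again below every WT brain, and fell by 0.36 (SE 0.105, adjusted p = 0.0462). Both calls lay near the threshold and each was lost in 8 of the 11 fits without 1 library (adjusted p up to 0.14 for ID1 and 0.165 for S100B). Without S brain 3 ID1 fell by 0.71 (adjusted p = 0.00751), while S100B missed the threshold.

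FABP7-1 read 1046, 929, 1043 and 1075 CPM in S brains, below all WT brains (log2 change -0.33, SE 0.098). Its adjusted p of 0.050034 fell just outside the threshold, and it was called when M brain 2, 3 or 4 was left out (lowest adjusted p 0.0227). GLUL-1 stood at 2767, 2616, 2514 and 2697 CPM, above every WT brain (0.32, SE 0.107, adjusted p = 0.0816), and was called without M brain 4 in the fit (adjusted p = 0.012). GFAP read 114, 128, 154 and 129 CPM, overlapping WT (-0.51, SE 0.232, adjusted p = 0.201). SLC1A2-1 had 7, 6, 12 and 10 counts (2.49, SE 0.926, adjusted p = 0.102), under the same limit of the filter. The abundant transporters were close to WT, with SLC1A2-2 at -0.02 (95% interval -0.18 to 0.15) and SLC1A3-1 at 0.10 (95% interval -0.02 to 0.22).

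Set directly against each other, the mutant brains differed by the test in 1 row of glutamine synthetase, GLUL-1. GLUL-1 was lower in M than in S brains by -0.46 (SE 0.099, adjusted p = 0.0128), with every M brain below every S brain, and the call held in each of the 11 fits without 1 library. GLUL-1 was the 1 gene of 12 called (8.33%). That is below the share of all genes, 10.1%, with 5.41% lower and 4.64% higher in M. GLUL-2 differed the same way by -0.50 with no overlap but missed the threshold (SE 0.171, adjusted p = 0.0969). S100B (-0.30, adjusted p = 0.0669) and her4.1 (0.46, adjusted p = 0.0922) did not pass either. Both were called without M brain 4 (-0.40, adjusted p = 0.00644 and 0.55, adjusted p = 0.0405). ID1 did not pass on all brains (0.35, adjusted p = 0.167) but was called higher in M without S brain 3 (adjusted p = 0.0339). Without both M brain 4 and S brain 3 it was higher by 0.57 (adjusted p = 0.00824).

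Markers of other cells also differed among the brains. Oligodendrocyte genes summed to 8951, 14599 and 11152 CPM in WT, to 5702, 6330, 5341 and 8331 CPM in M and to 9287 to 10558 CPM in S. Of 14 such genes, 9 were called lower in M against WT and none higher, with mbpb at -1.01 and cldnk at -1.33, and 1 was called lower in S. That is 64.3% in M and 7.14% in S, where 10.1% and 10.3% of all genes were called. M brain 4 was the highest M brain for the oligodendrocyte sum, as it was for S100B, GFAP and GLUL-1. Photoreceptor and pineal genes summed to 30.4 to 39.1 CPM in WT, 350 to 558 CPM in M and 300 to 549 CPM in S. The neuron list stood at 13105 to 14587 CPM in WT, 12546 to 13402 in M and 12544 to 13281 in S. The part of any of these in the results on glial genes was not tested.

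The summed level of all 13 rows was 7294 to 8331 CPM in WT, 6309 to 6887 CPM in M and 7414 to 7723 CPM in S. The genes did not move as one block. Over the 11 brains the Pearson correlation of their log2 levels ranged from -0.834 to 0.889 among 66 pairs, with a median of 0.115. Averaged after standardising each gene, the 4 M brains had the 4 lowest scores. Among 11158 genes above 10 CPM, those whose levels across the 11 brains were most like this score were CLP1 (r = 0.952), crema (0.938), ZHX2 (0.916), edn1 (0.907) and si:zfos-943e10.1 (0.905). These brains share their genotype groups, and the correlations are a description.

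**Figure D2:**
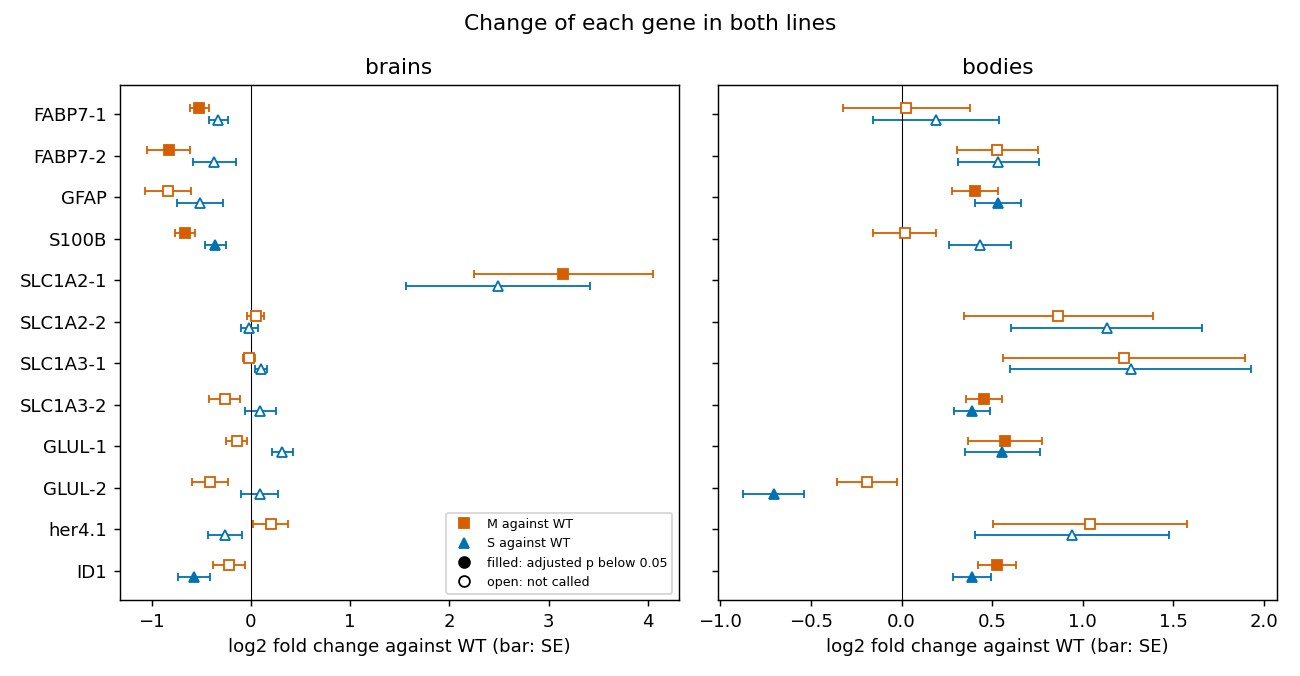
Log2 fold change against WT (x axis; bars are SE) of each tested gene in M (squares) and S (triangles), in brains at left and bodies at right, where filled symbols have an adjusted p below 0.05. In brains FABP7-1, FABP7-2, GFAP, S100B and ID1 lie left of 0 in both lines, and in bodies GFAP, SLC1A3-2, GLUL-1 and ID1 are called to the right of 0 in both.

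Other genes of these cells were read from wider lists without the 13 rows. Among 31 radial glia and progenitor genes, 2 passed as higher and 3 as lower in M brains (median log2 change 0.15), and 2 higher and 1 lower in S brains (median -0.06). That is 16.1% of the list in M and 9.68% in S, where 10.1% and 10.3% of all genes were called. The tetraspanin cd9b was 86.0 ± 18.4 CPM in WT, 38.0 ± 5.01 in M and 79.7 ± 10.04 in S (SD, n = 3, 4 and 4). It fell by 1.18 in M (SE 0.147, adjusted p = 0.000543) and also stood lower in M than in S (-1.07, adjusted p = 0.000682). The oligodendrocyte list had median log2 changes of -0.66 in M against WT, -0.58 in M against S and -0.18 in S against WT. Which cells held the cd9b transcript was not tested. One of the SOX9 rows (ENSDARG00000003293), a transcription factor of glial fate, rose by 0.88 in M (SE 0.130, adjusted p = 0.00108), from 25.7 ± 3.26 to 47.1 ± 6.75 CPM. A VIM row (ENSDARG00000044501), the intermediate filament vimentin, fell in both lines, by 0.60 in the M line (adjusted p = 0.0162) and by 0.69 in the S line (adjusted p = 0.00857). LRP2, an endocytic receptor, rose by 0.52 in M and 0.62 in S.

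Among 41 tested genes of astroglial function, 1 was higher and 3 lower in M brains, and 3 higher and 1 lower in S brains, or 9.76% in each line, near the share of all genes. SLC6A9, the glycine transporter of astroglia, rose by 0.51 in M and by 0.51 in S. An ALDOC row, the aldolase of astroglia, fell by 0.21 in M and 0.32 in S. The sodium pump subunits ATP1B4 and ATP1B1 fell by 0.51 and 0.47 in M.

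Of 46 Notch pathway genes, 2 were higher and 2 lower in M brains and 3 higher and 1 lower in S brains, or 8.7% in each line, again near the share of all genes. The receptor NOTCH3 rose by 0.41 in M and 0.35 in S, and the ligand dlb fell by 1.25 in M. Of 36 genes of the BMP and Id pathway, none was higher and 4 were lower in M brains, and 2 were higher and 1 lower in S. That is 11.1% and 8.33%, near the 10.1% and 10.3% of all genes. The BMP antagonist GREM1 (ENSDARG00000029546) had no counts in any M brain and 54 in the 3 WT brains, at least 25.6-fold lower against a floor of 3 counts over the M group. It passed the filter on low counts through the WT brains alone, so it could only be lower, and it is counted among the 4. The inhibitory SMAD7 fell by 0.51 in M, and a BMPR2 receptor row rose by 0.76 in S. Of 21 genes of the glutamate cycle, the aspartate aminotransferases GOT1 and GOT2 fell in M brains (-0.41 and -0.46), and got2b fell in S brains (-0.26), which is 9.52% and 4.76% of the list.

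In bodies, several of the same genes were higher in both lines. Of 11 genes tested in M bodies, 4 were called higher and none lower, where 33.1% of 20240 genes were called, 12.4% higher and 20.7% lower. In S bodies 4 were higher and 1 lower, where 36.8% of all genes were called, 15.7% higher and 21.1% lower. The median log2 change of the 11 was 0.53 in either line, where that of all genes was 0.05 in M and 0.02 in S. The same 6 WT bodies served both comparisons. WT and mutant bodies also differed in the summed level of ovary genes. With that sum as a covariate no member was called in either line, as given below.

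**Figure D3:**
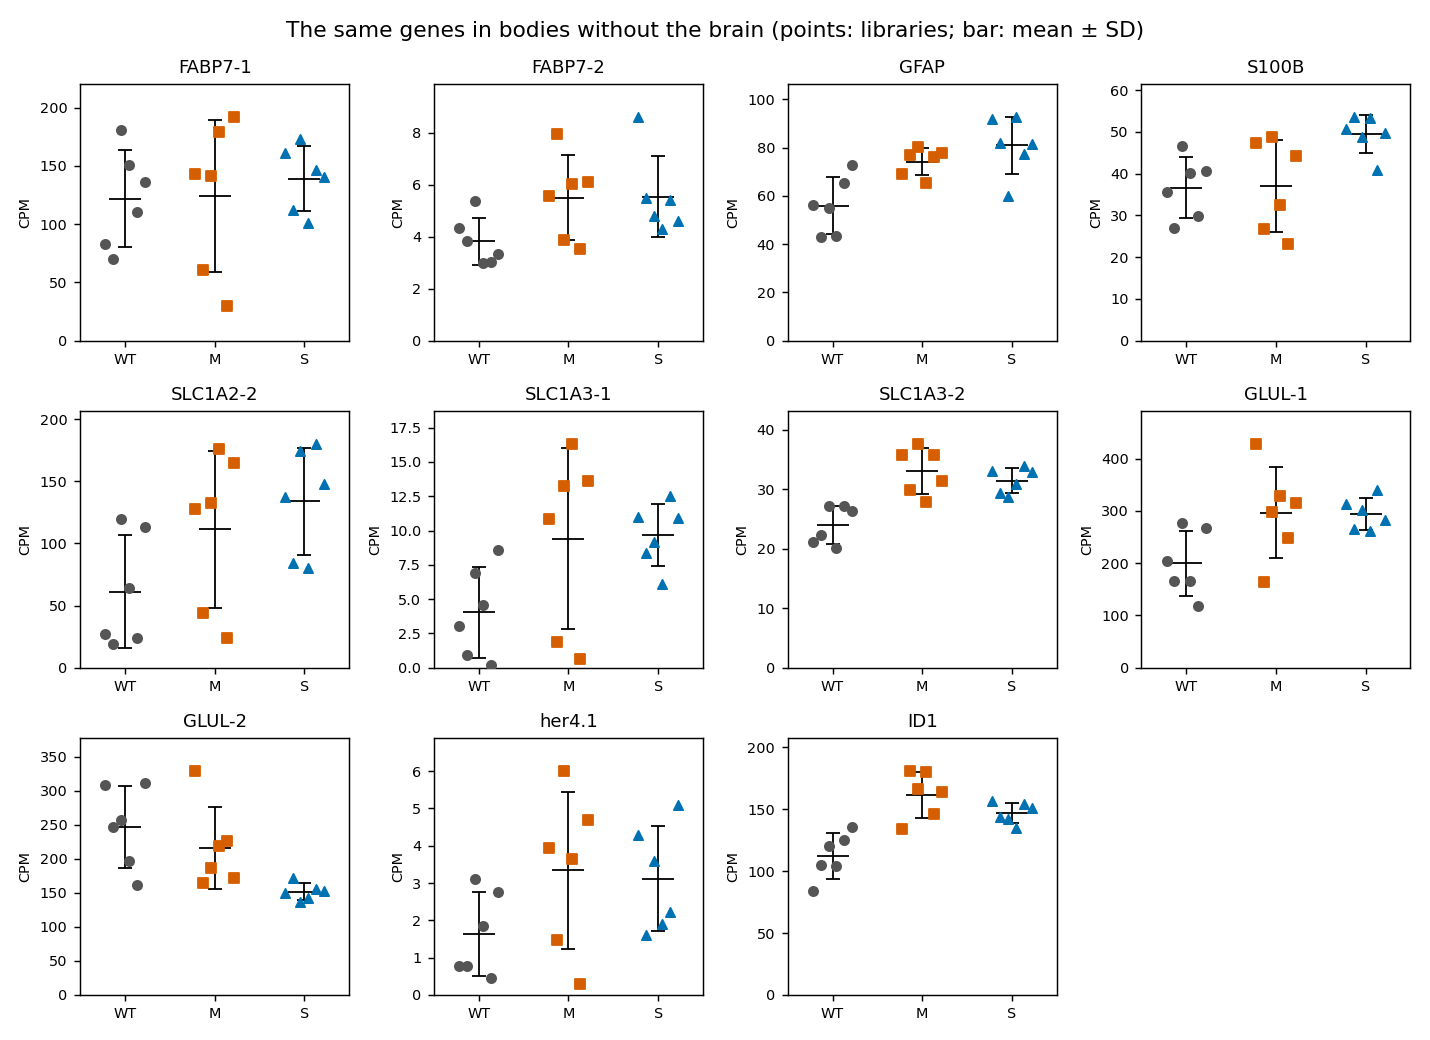
CPM after TMM scaling (y axis, linear, from 0) of the 11 genes tested in bodies without the brain, for 6 WT, 6 M and 6 S libraries; points are libraries and bars are mean ± SD. SLC1A3-2 lies higher in every mutant body than in any WT body, while SLC1A2-2, SLC1A3-1 and her4.1 spread widely within each group.

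SLC1A3-2 was separated most cleanly, at 20.2, 24.3 and 27.2 CPM (lowest, median and highest) in WT, 27.8, 33.6 and 37.6 CPM in M and 28.6, 31.9 and 34.0 CPM in S. No mutant body overlapped WT. It rose by 0.46 in the M line (SE 0.099, adjusted p = 0.00169) and by 0.39 in the S line (SE 0.099, adjusted p = 0.00563). ID1 ran from 83.6 through 113 to 135 CPM in WT, from 134 through 165 to 181 CPM in M, and from 135 through 147 to 157 CPM in S. The ranges only touched at their ends. It rose by 0.53 in the M line (SE 0.106, adjusted p = 0.000964) and by 0.39 in the S line (SE 0.106, adjusted p = 0.00867).

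GFAP ran from 43.1 through 55.7 to 72.7 CPM in WT, from 65.4 through 76.6 to 80.2 in M and from 59.9 through 81.9 to 92.7 in S. Some mutant bodies overlapped the upper WT bodies. GFAP rose by 0.41 in the M line (SE 0.128, adjusted p = 0.0196) and by 0.53 in the S line (SE 0.128, adjusted p = 0.0038), and leaving out WT body 2 or 4 ended the call in M (adjusted p up to 0.0596). GLUL-1 ran from 117 through 185 to 277 CPM in WT, from 164 through 306 to 428 in M and from 261 through 292 to 339 in S. It rose by 0.57 in the M line (SE 0.206, adjusted p = 0.0391) and by 0.56 in the S line (SE 0.206, adjusted p = 0.0408), with overlap, and each call was lost in 8 of 18 fits without 1 library (adjusted p up to 0.107 in M and 0.0876 in S).

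GLUL-2 went the other way in the S line. It ran from 161 through 252 to 312 CPM in WT, from 165 through 203 to 328 in M and from 136 through 151 to 172 in S. The S bodies were tightly grouped and reached only the lowest WT body. GLUL-2 fell by 0.71 in S (SE 0.168, adjusted p = 0.00356), and its log2 change was -0.19 in M (SE 0.167, adjusted p = 0.379). Between M and S bodies edgeR called none of the 11 genes, where 8.11% of all genes passed, 4.3% as higher in M and 3.81% as lower. Of the 11, 2 had an unadjusted edgeR p below 0.05, namely GLUL-2 and S100B, and DESeq2 called 1, GLUL-2 (adjusted p = 0.027).

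The other members did not pass the test in bodies in the fit without a block for the replicate number. With that block her4.1, S100B, SLC1A2-2 and SLC1A3-1 were called higher in S bodies. FABP7-2 ran from 2.98 to 5.37 CPM in WT, 3.52 to 7.94 in M and 4.299 to 8.60 in S (log2 change 0.53 in both lines, adjusted p = 0.0757 in M and 0.0664 in S). S100B ran from 26.8 to 46.6 CPM in WT, 23.0 to 48.8 in M and 40.9 to 53.5 in S (0.02 in M, adjusted p = 0.948; 0.44 in S, adjusted p = 0.0546). The transcripts that were highest in brain varied widely. For example, her4.1 ran from 0.461 to 3.11 CPM in WT, 0.302 to 5.99 in M and 1.61 to 5.09 in S, and SLC1A2-2 from 19.0 to 120 CPM in WT, 24.0 to 176 in M and 80.5 to 180 in S. M body 5 was the lowest body of its line for FABP7-1, S100B, SLC1A2-2, SLC1A3-1 and her4.1.

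Bodies differed in more than genotype. Ovary genes summed to 1670 to 9850 CPM in WT bodies, 10.6 to 141 CPM in M and 10.2 to 1301 CPM in S. With the log2 of that sum as a covariate, edgeR called no member in either line, and 0 had an unadjusted p below 0.05. Of all genes 39 were called in M and 230 in S under this fit. GFAP was then 0.07 in M and 0.26 in S, ID1 0.22 and 0.15, SLC1A3-2 0.25 and 0.21, GLUL-1 0.45 and 0.46. GLUL-2 was -0.51 in S. Ovary content and genotype cannot be told apart, since no body of either line reached the WT range of this sum.

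Neuron genes also varied, from 436 to 1025 CPM in WT bodies, 350 to 1341 CPM in M and 867 to 1254 CPM in S. Correlations with this sum were taken on log2 values. The permutations mixed bodies of all genotypes, so a shift shared within a genotype counts toward the permutation p-values. SLC1A3-1 followed this sum over the 18 bodies with Pearson's r = 0.982 and Spearman's rho = 0.969 (permutation p = 1e-05 for each, the smallest that 100000 permutations can give; adjusted over 11 genes, 3e-05 and 5e-05). Within WT, M and S bodies r was 0.980, 0.993 and 0.905, and without the 2 bodies farthest from the median it was 0.987. SLC1A2-2 gave r = 0.967 and rho = 0.965 (adjusted permutation p = 3e-05 and 5e-05), with 0.962, 0.997 and 0.975 within the groups and 0.974 without those 2 bodies. For her4.1 the values were 0.916 and 0.851 (adjusted permutation p = 3e-05 and 8e-05), with 0.957, 0.964 and 0.663 within groups and 0.859 without the 2 bodies.

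FABP7-1 also followed the neuron sum (r = 0.859, rho = 0.808, adjusted permutation p = 3e-05 and 0.000242; 0.765, 0.997 and 0.921 within groups; 0.883 without the 2 bodies). GLUL-1 did so with r = 0.775 and rho = 0.884 (adjusted permutation p = 0.000862 and 8e-05; 0.862, 0.657 and 0.879 within groups; 0.879 without the 2 bodies). S100B gave r = 0.787 but rho = 0.486 (adjusted permutation p = 0.000638 and 0.0582), and its r within S bodies was -0.734, so the relation did not hold within every group. GFAP (r = 0.327, rho = 0.315, adjusted permutation p = 0.207 and 0.222) and SLC1A3-2 (r = 0.326, rho = 0.375, adjusted permutation p = 0.207 and 0.155) did not pass. Within WT, M and S bodies r was 0.255, -0.294 and -0.466 for GFAP and 0.173, -0.173 and 0.455 for SLC1A3-2. Without the 2 bodies farthest from the median their r was 0.51 and 0.648. ID1 (r = 0.417, rho = 0.531) and FABP7-2 (r = 0.43, rho = 0.536) passed by rank alone (adjusted permutation p = 0.115 and 0.0398 for each). Their r without the 2 bodies was 0.569 and 0.211, and within WT, M and S bodies it was 0.29, 0.161 and 0.777 for ID1 and 0.299, 0.246 and 0.345 for FABP7-2. For GLUL-2 r was -0.178 (adjusted permutation p = 0.484). With each genotype centred on its own mean, r was 0.979 for SLC1A3-1, 0.963 for SLC1A2-2, 0.931 for FABP7-1 and 0.915 for her4.1. It was 0.785 for S100B, 0.731 for GLUL-1, 0.256 for FABP7-2, 0.242 for ID1 and 0.23 for GLUL-2. For SLC1A3-2 it was 0.014 and for GFAP -0.024. These centred values were not tested.

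**Figure D4:**
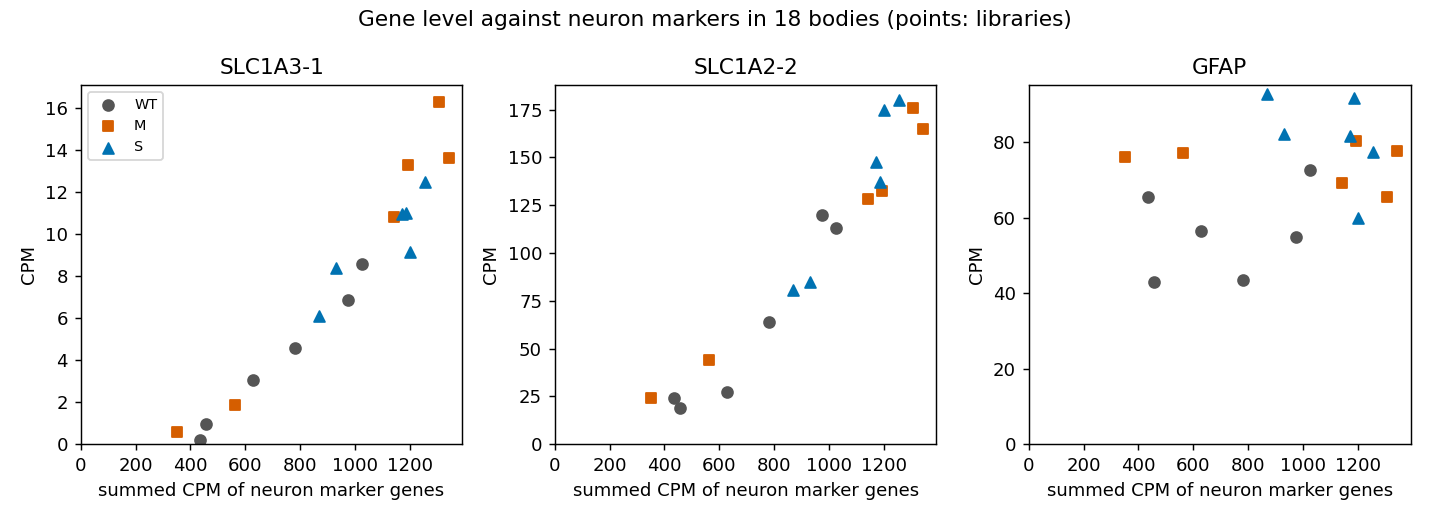
CPM of SLC1A3-1, SLC1A2-2 and GFAP (y axes, linear) against the summed CPM of the neuron marker genes (x axis) in 18 bodies; each point is a library. The transporters rise along the x axis in all 3 genotypes (r of log2 values 0.982 and 0.967). GFAP did not pass the test of this relation (r = 0.327, adjusted permutation p = 0.207).

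Holding the neuron sum as a covariate, a fit added after these relations were seen, left GFAP, ID1 and SLC1A3-2 called higher in both lines. GFAP was 0.41 in the M line (adjusted p = 0.0212) and 0.54 in the S line (adjusted p = 0.0101), and SLC1A3-2 was 0.46 and 0.38. GLUL-1 was 0.41 in M (adjusted p = 0.0392) and 0.26 in S, no longer called (adjusted p = 0.238). FABP7-1, at 0.03 in M and 0.19 in S without the covariate, turned to -0.62 in the M line (adjusted p = 0.00512) and -0.58 in the S line (adjusted p = 0.0162). SLC1A3-1, at 1.23 in the M line (SE 0.668, adjusted p = 0.164) and 1.27 in the S line (SE 0.667, adjusted p = 0.142), came to 0.06 and 0.02. Since FABP7-1 and SLC1A3-1 follow the sum (r = 0.859 and 0.982), their changes had to move under this fit. The median sum was 705 CPM in WT bodies, 1166 in M and 1179 in S, so neuron content and genotype cannot be fully told apart here.

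The wider lists, again without the 13 rows, held more calls in bodies, where 33.1% of all genes were called in M and 36.8% in S. Of 38 tested genes of the BMP and Id pathway, 14 were higher and 2 lower in M bodies and 15 higher and 2 lower in S bodies, or 42.1% and 44.7%, with median log2 changes of 0.31 and 0.33. The signal carrier SMAD1 rose by 0.60 in M and 0.59 in S, and the related SMAD5 fell in both, with log2 changes of -1.19 and -1.099. Of 46 Notch genes, 8 were higher and 3 lower in M and 12 higher and 2 lower in S, which is 23.9% and 30.4% and below the share of all genes. The ligand dlc rose by 0.52 and 0.49, and APH1B, a subunit of the protease that releases the Notch signal, fell by 0.62 and 0.45. Of 30 radial glia and progenitor genes, 7 were higher and none lower in M, and 12 higher and 2 lower in S, or 23.3% and 46.7%. Of 43 genes of astroglial function, 6 were higher and 1 lower in M and 10 higher and 4 lower in S, or 16.3% and 32.6%, below the share of all genes, with SLC6A9 up by 0.81 in each. The ovary sums given above differed between the same groups of bodies, and their part in the calls of these lists was not tested.

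Whether the log2 change against WT differed between brain and body was tested as an interaction over all 29 libraries. The body side of it cannot be told apart from ovary content, as given above. No interaction was fitted with the ovary covariate, under which no member was called in bodies of either line. For M, 4 of 12 genes differed, all with the lower change in brain, where 12.3% of 22442 genes were called, 3.64% lower and 8.69% higher. For S, 3 were lower and 1 higher, where 9.17% of genes were called, 2.75% lower and 6.42% higher. The split of all genes depends on the scaling, with 1951 higher and 816 lower for M under TMM and 1494 and 1470 under RLE factors, and with 1440 and 617 for S under TMM and 1082 and 961 under RLE. RLE moved the median of all genes for M from 0.00 to -0.15.

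GFAP differed between tissues in both lines, by -1.21 in the M line (SE 0.252, adjusted p = 0.00296) and by -0.98 in the S line (SE 0.252, adjusted p = 0.0163). It was below WT in brains and above WT in bodies, as the plot of fold changes shows, though in brains neither change was called. ID1 differed by -0.72 in the M line (SE 0.195, adjusted p = 0.0157) and by -0.90 in the S line (SE 0.195, adjusted p = 0.00649). In M, FABP7-2 differed by -1.33 (SE 0.338, adjusted p = 0.0109) and SLC1A3-2 by -0.69 (SE 0.187, adjusted p = 0.0154). In S, S100B differed by -0.74 (SE 0.232, adjusted p = 0.0442) and GLUL-2 by 0.85 (SE 0.266, adjusted p = 0.0424), the latter lost with RLE factors (0.73, adjusted p = 0.097) and with TMM factors within each tissue (0.81, adjusted p = 0.0555). In M the difference of S100B was similar, at -0.64 (SE 0.233), and was not called (adjusted p = 0.0698). It was called in 4 of 29 fits without 1 library, among them that without M brain 4 (adjusted p down to 0.024 over the fits). The S call of S100B was lost in 16 of 29 fits without 1 library (adjusted p up to 0.121), and that of GLUL-2 in 14 of 29 (adjusted p up to 0.109). Leaving out 1 library also ended the M call of ID1 without WT brain 2 (adjusted p = 0.0614), that of SLC1A3-2 without WT brain 1 (adjusted p = 0.105) and the S call of GFAP without WT brain 2 (adjusted p = 0.105).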

How the data were processed

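RNA was counted per gene in 11 brains and 18 bodies. The authors deposited raw counts, 32520 genes in each of 2 tables, whole numbers with no normalization. Per the labels' protocols, an Illumina HiSeq gave paired reads of 150 bp. STAR and the builds GRCz11 and GRCz10 are named in the submitters' processing notes. Which program counted the reads, with which annotation and strand setting, is not given in the sources used here. No sequence or coordinate is printed, because no genome of these builds was used here.

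The test of counts was that of edgeR 4.0.16 under R 4.3.3 (TMM factors, default filter on low counts, robust quasi-likelihood F test). All 3 groups of a tissue were in 1 fit, and all 29 libraries were in the fit for tissue differences. A gene was called at a Benjamini-Hochberg adjusted p, over all genes tested, below 0.05; adjusted p-values of genes are edgeR's unless DESeq2 is named. Fold changes are log2 values, the SE is the log2 change divided by the square root of F, and an interval of 95% is the change plus or minus its normal multiple of SE. The pipeline was tested on simulated counts. Alternatives were each library left out, the replicate number as a block, DESeq2 1.42.0, RLE factors, other filters, fitting without robustness, fits of the compared groups alone, and covariates for bodies; the neuron covariate and TMM factors within each tissue were added after seeing the data. No libraries within a group were duplicates.

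The members and lists were chosen with earlier results of these data known. All 13 rows are described, and the genes named from a wider list are up to 4 called genes per comparison with the smallest p.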

Additional observations from a re-analysis of the deposited data

Results flagged for a closer look

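Among 57 groups of 4 or 6 libraries examined gene by gene, 2 held a library set apart from the rest, where chance flags about 1 group in 20. FABP7-2 was 8.6 CPM in S body 1 against 4.3 to 5.5 CPM in the other S bodies. GLUL-2 was 328 CPM in M body 1 against 164 to 226 CPM in the other M bodies.

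For 8 combinations of gene and line, the log2 change against WT differed between brain and body in a test of the difference itself. These were 4 of 12 genes tested in each line (33.3%), where 12.3% of all genes were called for M and 9.17% for S. Its body side cannot be told apart from ovary content. As the log2 effect in brain minus that in body, the values in M were -1.33 for FABP7-2, -1.21 for GFAP, -0.72 for ID1 and -0.69 for SLC1A3-2. In S they were -0.98 for GFAP, 0.85 for GLUL-2, -0.90 for ID1 and -0.74 for S100B. The S100B call was lost in 16 of 29 fits without 1 library and with no filter on low counts (adjusted p = 0.052). The GLUL-2 call was lost in 14 of 29 such fits, under DESeq2 (adjusted p = 0.0722) and with RLE factors (adjusted p = 0.097). The M calls of ID1 (adjusted p = 0.0614) and SLC1A3-2 (adjusted p = 0.105) were each lost in 1 of 29 such fits. So was the S call of GFAP (adjusted p = 0.105).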

How the results depend on the processing

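Counts of glial genes called in brains moved with the setting. Some counts in this paragraph stand without the number of all genes called in the same fit. Those are not read as results about glial genes. DESeq2 called 4 in S, 3 in M against S and 1 in M against S bodies. A fit that is not robust called 1 in S brains. With only the groups compared in the fit, 2 were called in M brains (1186 of all genes), 2 in M against S brains and 1 in M against S bodies. Without both M brain 4 and S brain 3, 4 were called in M against S. With the ovary covariate 0 were called in M bodies (39 of all genes) and 0 in S bodies (230 of all genes), and with the neuron covariate, added after seeing the data, 1 in M against S bodies. That covariate also turned FABP7-1 in bodies to -0.62 in M and -0.58 in S. TMM factors within each tissue, also added later, turned SLC1A3-2 between WT tissues to 0.20. The cause of these shifts was not tested. Leaving out 1 library gave 2 to 6 calls in M brains (1060 to 2590 of all genes), 0 to 4 in S brains (895 to 2270) and 1 to 3 between lines (1067 to 2482). In bodies it gave 2 to 6 in M (5335 to 8464), 4 to 8 in S (5791 to 9169) and 0 to 1 between lines (1221 to 1919). It gave 9 to 10 between tissues in WT (17199 to 17942), 3 to 6 for the M interaction (1938 to 4139) and 1 to 4 for the S interaction (1041 to 3439). The counts in brains against WT include SLC1A2-1 where it was called, which could only be higher. Over all alternatives, 2671 values of single genes stayed on the same side of the threshold, 128 lost the call and 65 gained one. A further 3 turned sign where the main or the alternative fit was called. Turns of sign without a call in either fit are counted among the 2671.

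The labels do not say that replicate numbers pair libraries, and not every pair correlated above 0.1, so the numbers were not used as pairs. Residuals of libraries with the same number correlated at -0.243 to 0.132 in brains (2 of 10 above 0.1) and at -0.3 to 0.501 in bodies (10 of 18 above 0.1). In bodies all pairs of WT with M lay above 0, at 0.08 to 0.501, and pairs with an S body ran from -0.3 to 0.382. With the replicate number as a block, 1 gene was called in S brains (FABP7-1, adjusted p = 0.0355), with ID1 at 0.0652 and S100B at 0.0788, and 9 in S bodies. The 9 included her4.1 (1.11, adjusted p = 0.0324), S100B (0.46, adjusted p = 0.0156), SLC1A2-2 (1.51, adjusted p = 0.0216) and SLC1A3-1 (1.84, adjusted p = 0.0435). SLC1A2-1 in M brains (adjusted p = 0.0942), GLUL-2 in the S interaction (0.0656) and SLC1A3-2 between WT tissues (0.108) were not called. The number of all genes called under the block is not given here, and without the block 36.8% were called in S bodies. The counts under the block are therefore not read as results about glial genes.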
